A study of Mus musculus with 4 samples.

Results

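Small nuclear RNAs (snRNAs) are short, abundant nuclear RNAs that carry out pre-mRNA splicing as protein-bound particles. U1 pairs with the 5′ splice site and U2 with the branch point, U4, U5 and U6 join as a tri-snRNP, and U11 and U12 take the places of U1 and U2 in the minor spliceosome, which removes a rare class of introns. Mammalian genomes hold a few active gene copies of each snRNA and a large number of dispersed, near-identical copies that are mostly pseudogenes, so a probe against an snRNA can bind transcripts of several loci. The clusters described here are the rows of a whole-transcript array table whose description names an snRNA, either as an Ensembl snRNA entry or with the words small nuclear RNA, and that do not carry a symbol starting with Scarna. The rule found 1157 of the 33793 transcript clusters. In the array design, a transcript cluster groups the probes laid out against 1 locus. Rows that share all 4 values were counted once, which left 1141 distinct clusters.

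The arrays measured whole brain of adult female 129SV mice, aged 5.5 months. There were 2 wild-type and 2 Adar2-/- brains, and no label ties a wild-type brain to a knockout brain. ADAR2, encoded by Adarb1, deaminates adenosine to inosine in double-stranded RNA. By the methods of the study, every mouse also carried the pre-edited Gria2 R allele on both chromosomes, which spares Adar2-/- mice from early death, and the wild-type mice were AdarB1+/+ offspring of the same kind of cross. Signals are log2 values normalized across the arrays by the authors, and all differences below are Adar2-/- minus wild type on that scale. In whole brain, fewer cells of a type and less RNA per cell cannot be told apart.

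Adarb1 itself gave signals of 10.50 and 10.45 in wild type and 9.16 and 8.96 in Adar2-/-. The groups did not overlap, and the difference was -1.42 ± 0.12 (SE, n = 2 per group, limma adjusted p = 0.409). Of the marker genes of neurons, astrocytes, oligodendrocytes, microglia and endothelium, 14 were found on the array, and all 14 lay above background on all 4 arrays (5.69 to 13.16). Of the 14, the oligodendrocyte gene Mog had an unadjusted limma p below 0.05 (10.11 and 10.21 in wild type, 9.90 and 9.72 in Adar2-/-, -0.35). Some markers of tissue next to the brain moved with genotype or with 1 array. Prl and Gh, pituitary hormone genes, were higher in both knockout brains (Prl 6.55 and 4.99 against 10.11 and 9.66, Gh 6.30 and 5.68 against 9.95 and 8.36). The summed level of the 5 pituitary clusters, of 4 genes, was 7.35 to 8.01 in wild type and 10.26 to 11.12 in Adar2-/-. Of 4 salivary gland genes, Bpifa2 was at 12.61 and Smr3a at 8.47 in knockout 1, against 5.09 to 5.28 and 3.65 to 4.12 elsewhere, while Smr2 and Lpo differed by 0.21 and 0.065 between genotypes. Of 5 olfactory genes, Doc2g was at 6.70 in knockout 2 and at 7.74 to 7.92 elsewhere, while Eomes and Tbx21 differed by 0.09 and 0.085, Omp by -0.27 and Calb2 by -0.30. The choroid plexus genes Ttr, Folr1 and Kl differed by 0.065, 0.005 and -0.12. Of the blood genes, Alas2 gave 8.71 and 7.90, then 7.34 and 7.80 (-0.74, unadjusted limma p below 0.05), and the 2 Hbb-b1 clusters 6.55 and 7.50, then 6.83 and 8.28, and 7.76 and 7.56, then 6.84 and 7.94. The part of such tissue in the snRNA signals was not tested.

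Whether most of the clusters are spliceosomal cannot be read from the table. Of the 1157 rows, 1121 were Ensembl snRNA entries with no gene symbol and no snRNA type. Another 12 carried the symbol of a spliceosomal snRNA: Rnu1b1 (U1) on 9 rows, and Rnu5g (U5), Rnu11 and Rnu12 on 1 row each. Rnu7 encodes U7, which directs 3′ end processing of histone mRNA and takes no part in splicing. The rule's wording also took in 8 small nucleolar RNA rows (Rnu3a, Rnu3b1, Rnu73b, Snord73a and Snord82), which guide modification or processing of ribosomal RNA, and 15 rows of protein genes named after snRNAs, namely Snapc1 to Snapc5, Lsm1 to Lsm5, Lsm7 and U2af1l4. Counts of the snRNA clusters or of the distinct clusters below include these rows, and counts of the unnamed clusters leave them out. No row was dropped for a Scarna symbol. In 4 sets of rows, 20 rows in all, the 4 signals were identical, so these rows are single measurements listed at several loci. The 9 Rnu1b1 rows form 1 such set, and the 4 Rnu3b1 rows another.

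Most of the snRNA clusters were not above the level expected of silent genes. The Y-linked genes Ddx3y, Eif2s3y, Kdm5d and Uty have no locus in these females and gave 3.49 to 4.40, which serves here as the background range, although each cluster's signal also depends on its own probes. The distinct clusters had a median mean signal of 3.29, against 6.06 for all clusters, and 622 lay below the background range, 167 within it and 352 above it. The 5 distinct small nucleolar RNAs and the 15 protein genes all lay above background, whereas 329 of the 1116 distinct unnamed Ensembl snRNA clusters (29.5%) did. Probes that can bind more than 1 transcript, as flagged in the table, made up another difference from the rest of the array: 55.8% of the distinct clusters carried the flag, against 14.7% of all clusters, and they rested on a median of 11 probes, against 22.

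**Figure D1:**
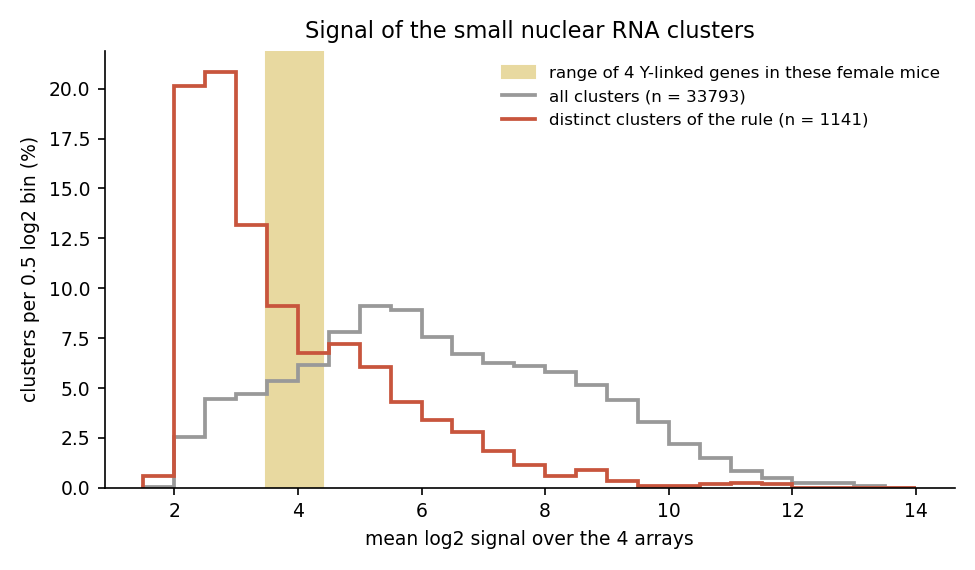
Share of clusters (y axis, percent per 0.5 log2 bin) by mean log2 signal over the 4 arrays (x axis), for the 1141 distinct clusters chosen by the rule and for all 33793 clusters, with the range of 4 Y-linked genes (3.49 to 4.40) shaded. The snRNA clusters peak below the shaded range, at a median of 3.29, while all clusters have a median of 6.06.

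Position within another gene went along with the signal. Of the distinct unnamed Ensembl snRNA clusters, 197 lay inside the cluster of a gene with a symbol on the same strand, 211 inside one on the opposite strand and 708 outside any. Clusters without a symbol, microRNA and other small RNA genes, and genes with a numbered Gm symbol were not taken as enclosing genes. Their median signals were 4.59, 3.03 and 3.12, and 105, 47 and 177 of them were above background. Over the 197 same-strand clusters, signal correlated with that of the enclosing gene at Pearson r = 0.297, and over the 211 opposite-strand clusters at r = 0.172, a description across loci of the same 4 libraries. Whether RNA of the enclosing gene contributes to the snRNA signal was not tested.

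The genotype comparison asks whether loss of ADAR2 changed these RNAs. No cluster passed an adjusted p of 0.05 with limma, neither among the 1141 distinct clusters nor among all 33793 (0.0% called, lowest adjusted p = 0.409). At an unadjusted p of 0.05, 116 of the 1141 (10.2%) were called, 74 higher and 42 lower in Adar2-/-, against a background of 5.95% over all clusters, 3.64% higher and 2.31% lower. The excess depended in part on the variance model. It was 8.50% against 5.83% with an intensity trend and 10.1% against 5.90% with robust eBayes. With a pooled-variance test that borrows nothing from other clusters, 61 (5.35%) were called, against 5.61% of all clusters. The split by direction moved with the scaling, for the snRNA clusters and for all clusters alike. After median centring of each array 51 of the 1141 were called higher (4.47%) and 59 lower (5.17%), against 2.37% and 3.64% of all clusters. After quantile normalization the counts were 54 and 55, against 2.65% and 2.79% of all clusters, and after cyclic loess 58 and 56, against 2.73% and 2.71%. Leaving out wild type 2 gave 56 higher (4.91%) and 60 lower (5.26%), against 2.87% and 2.02% of all clusters.

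Of the 116 called clusters, 80 had a mean signal no higher than the background maximum. Within the background range itself 35 of 167 snRNA clusters (21.0%) were called, against 8.71% of all clusters at that signal. Below it the shares were 7.23% and 6.23%. Among clusters at a signal of 8 or more, 6 of 30 (20.0%) were called, against 3.11% of all clusters at that signal. Of these 6, 4 were among the 18 unnamed clusters at that signal (22.2%), and the others were Rnu12 and the protein gene Snapc1. All but Snapc1 were flagged for cross-hybridization, and their differences depended on single arrays, as given below. Clusters flagged for cross-hybridization and those without the flag were called at 11.4% (72 of 629) and 8.21% (40 of 487) of the unnamed Ensembl snRNA clusters, against 9.41% and 5.35% of all clusters with and without the flag.

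As a group the clusters barely shifted. Their median difference was 0.035, against 0.005 for all clusters, and 56.9% were higher in Adar2-/-, against 51.5%. After median centring, which lowers all clusters alike, the median was -0.005 and 48.99% were higher, against -0.035 and 40.4% for all clusters. In 389 of the 1141 (34.1%) both knockout signals lay on the same side of both wild-type signals, against 34.1% of all clusters, with 249 above (21.8%) and 140 below (12.3%), where all clusters had 17.7% and 16.5%. After median centring 190 were above (16.7%) and 195 below (17.1%), against 12.8% and 24.0% of all clusters. With 2 arrays per genotype, the smallest two-sided p that an exact permutation test of 1 cluster can give is 0.333.

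**Figure D2:**
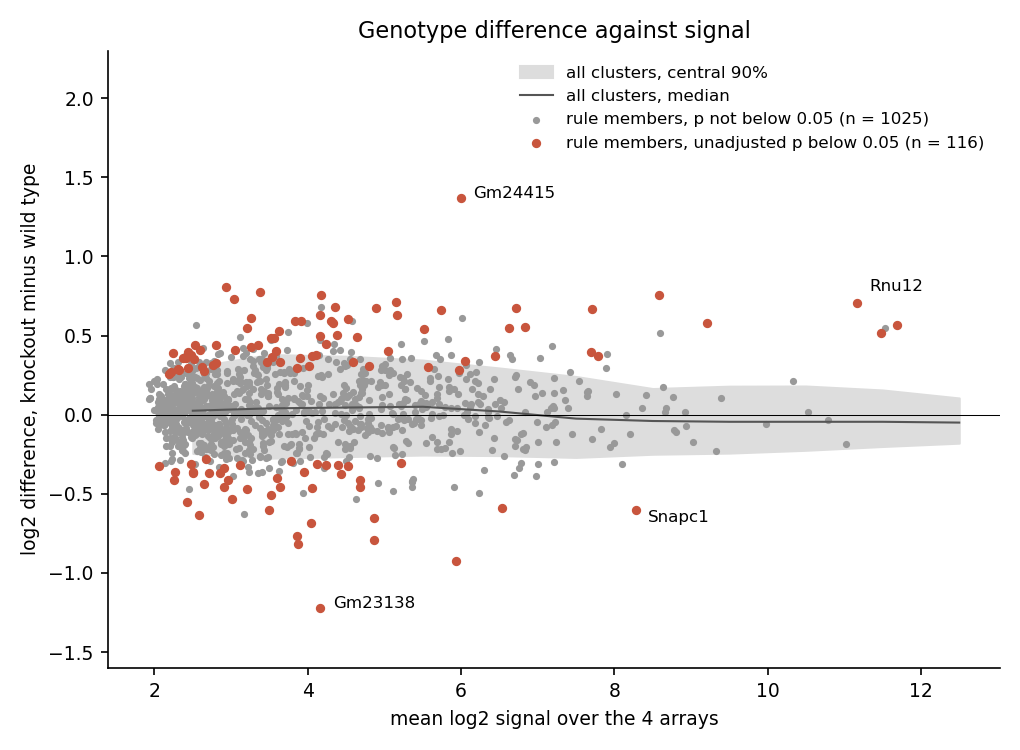
Difference between genotypes (y axis, log2, Adar2-/- minus wild type) against mean log2 signal over the 4 arrays (x axis) for the 1141 distinct clusters, with the 116 of unadjusted p below 0.05 in red; the grey band holds the central 90% of all clusters and the line their median. Gm24415 (1.37) and Gm23138 (-1.22) are the 2 clusters past 2-fold, and most points, red or not, lie at low signal.

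The spread between brains of 1 genotype was wider than over all clusters, but little so at the lowest signals. Over the distinct clusters the median absolute difference was 0.17 for the wild-type pair and 0.19 for the knockout pair, and over all clusters it was 0.13 for either pair. For the 622 below the background range it was 0.15 and 0.17, against 0.14 and 0.16 for all clusters there. Within the range it was 0.20 and 0.25, against 0.16 and 0.17, and there 55.7% were flagged for cross-hybridization, against 20.3%. For those between the background range and a signal of 6 it was 0.23 for either pair, against 0.14 and 0.16. All clusters flagged for cross-hybridization had 0.17 and 0.18. Of the snRNA clusters 21 (1.84%) differed at least 2-fold between the 2 wild-type brains, 14 higher in wild type 1 and 7 higher in wild type 2, against 0.266% of all clusters. Between the knockout brains 6 (0.526%) did, against 0.447% of all clusters. Between the genotype means, which average 2 arrays each, 2 of the 1141 did, and 46 of all 33793 clusters.

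The widest spread was found at 3 clusters of no consistent genotype difference. The cluster at chr17:25694114-25694220 gave 4.10 and 3.07 in wild type and 4.26 and 2.65 in Adar2-/-. The cluster at chr9:82439414-82439474 gave 4.58 and 3.75, then 4.83 and 3.34. In both, the first brain of each genotype was high and the second low. The cluster at chr7:63585922-63586022, inside Otud7a, gave 5.22 and 3.86 in wild type and 4.84 and 4.37 in Adar2-/-, again with overlapping groups.

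Of the 1141 distinct clusters, 2 (0.175%) combined an unadjusted p below 0.05 with at least a 2-fold difference, against 0.0681% of all clusters. The count was 5 (0.438%) without wild type 1, 8 (0.701%) without wild type 2, 4 (0.351%) without knockout 1 and 3 (0.263%) without knockout 2, against 0.121%, 0.121%, 0.160% and 0.281% of all clusters. The larger was a 107-nt cluster at chr15:90054409-90054515, minus strand, whose span equals the RefSeq snRNA gene Gm24415. Coordinates are those of the table, which does not name its build, and RefSeq names are from GRCm38.p6. Gm24415 lay outside the enclosing genes considered here and gave 5.36 and 5.27 in wild type and 6.79 and 6.58 in Adar2-/-. Both knockout signals were well above both wild-type signals, at a difference of 1.37 ± 0.12 (SE, limma adjusted p = 0.409). It stayed below an unadjusted p of 0.05 in all 11 alternative analyses that could include it, at 1.27 to 1.48. Its 12 probes are flagged for cross-hybridization, so the locus that gave the signal is not settled. The study selected this cluster on the same arrays, so that selection is not independent evidence.

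The other was a 103-nt cluster at chr4:108498044-108498146, plus strand, with the span of Gm23138. It lies on the strand of Zcchc11, a gene for a uridylyltransferase that tails small RNAs. Signals were 5.06 and 4.49 in wild type and 3.47 and 3.64 in Adar2-/-. Wild type was above background and the knockout signals were in or just under the background range, at a difference of -1.22 ± 0.20 (SE, limma adjusted p = 0.829). Zcchc11 gave 8.18 and 8.22 in wild type and 8.12 and 8.51 in Adar2-/-, with overlapping groups. Its 9 probes are flagged for cross-hybridization too, so both 2-fold clusters drop out when flagged clusters are left out. Without wild type 1 the difference of Gm23138 was -0.935, under 2-fold, and without wild type 2 it was -1.505. With the pooled-variance test Gm23138 was not called.

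**Figure D3:**
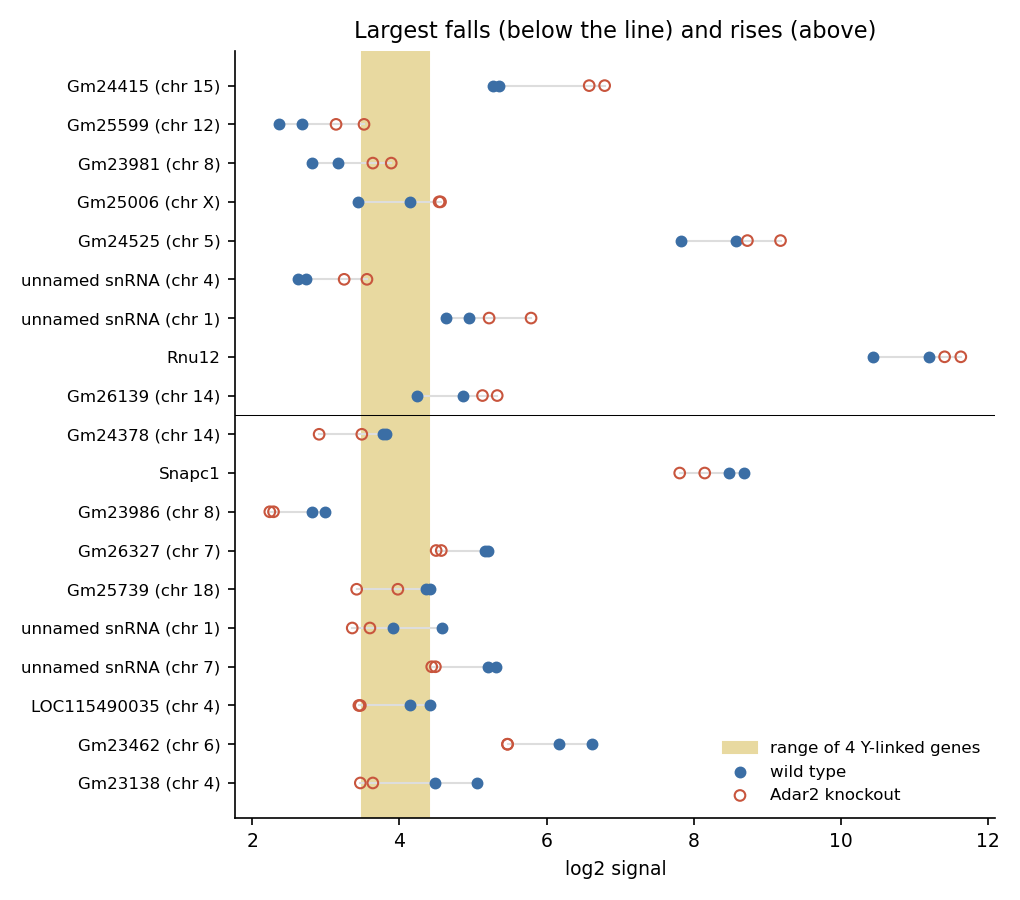
Log2 signal (x axis) of each brain for 9 of the 10 distinct clusters with the largest rise and for the 10 with the largest fall among those of unadjusted p below 0.05, with wild type as filled and Adar2-/- as open circles, and the range of 4 Y-linked genes shaded. Rnu12 and Gm24525 lie far to the right of the shaded range, as does the protein gene Snapc1, whereas most of the others lie in or near it.

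Rnu12 was the 1 cluster with an snRNA symbol among the 10 largest rises. U12 is the branch-point snRNA of the minor spliceosome. Its cluster (chr15:83149644-83149794, plus strand, 151 nt) gave 11.20 and 10.43 in wild type and 11.41 and 11.63 in Adar2-/-. Both knockout brains were above both wild-type brains, but knockout 1 exceeded wild type 1 by little and the 2 wild-type brains lay 0.77 apart. The difference was 0.71 ± 0.26 (SE, unadjusted limma p below 0.05, adjusted p = 0.834). It was not called without wild type 2 (0.32), knockout 1 (0.82) or knockout 2 (0.60), it was 1.09 without wild type 1, and it had an unadjusted p below 0.05 in 7 of 12 alternative analyses.

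The other spliceosomal snRNAs with a symbol did not pass the test. Rnu11, which encodes the 5′ splice site snRNA of the minor spliceosome, gave 9.39 and 9.30 in wild type and 9.59 and 9.31 in Adar2-/- (0.11 ± 0.13 SE). The shared Rnu1b1 measurement was 6.79 and 7.15, then 7.75 and 7.06 (0.44 ± 0.25 SE), with knockout 2 between the 2 wild-type brains. Without knockout 2 the difference was 0.78, and without knockout 1, the highest array, it was 0.09. Rnu5g gave 2.23 and 2.70 in wild type and 2.10 and 2.38 in Adar2-/-, below background on all 4 arrays, so that these values do not measure a difference in this U5 gene. Rnu7 gave 3.62 and 4.41, then 4.33 and 4.19, within background apart from a single value just above it (0.25 ± 0.26 SE). Its difference was 0.64 without wild type 2 but -0.15 without wild type 1.

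Of the 6 clusters with no symbol but the length of Rnu12, 2 had the same array lowest and the same array highest. This pattern was noticed after the values were seen and is given without a test of the pattern. The cluster at chr2:129315329-129315479 (Gm25703, 151 nt) gave 9.22 and 8.61 in wild type and 9.39 and 9.60 in Adar2-/- (0.58, unadjusted p below 0.05). Gm24525, at chr5:7177706-7177856 on the strand of Zfp804b and also 151 nt, gave 8.57 and 7.83, then 8.73 and 9.18 (0.76 ± 0.27 SE, unadjusted p below 0.05). In Rnu12, Gm25703 and Gm24525 alike, wild type 2 was lowest and knockout 2 highest. All 3 are flagged for cross-hybridization, so they are not known to be separate measurements. The enclosing gene Zfp804b gave 6.72 and 6.83 in wild type and 6.47 and 6.56 in Adar2-/- and was not called. The other 4 clusters of 151 nt lay at a mean signal of 2.39 to 4.24, did not pass the test and had other orders of arrays. The brightest of them, at chr1:66436082, gave 4.36 and 4.37 in wild type and 4.53 and 3.71 in Adar2-/-, with knockout 2 lowest.

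The 3 unnamed distinct clusters of highest signal were 191 nt long and had a different order of arrays. Gm25360 (chr1:72226240-72226430, plus strand) gave 11.22 and 11.58 in wild type and 12.05 and 11.88 in Adar2-/- (0.57 ± 0.15 SE, unadjusted p below 0.05). Gm25813 (chr8:52336915-52337105, minus strand) gave 10.85 and 11.67, then 11.72 and 11.89 (0.55 ± 0.27 SE, not called). The third measurement, shared by 4 clusters at chr1:72236946-72237136, chr1:72244213-72244403, chr1:72255008-72255198 and chr11:83271498-83271688, was 10.92 and 11.53, then 11.80 and 11.68 (0.52 ± 0.21 SE, with an unadjusted p only just below 0.05). In each of these the groups did not overlap and wild type 1 was lowest, where in Rnu12 it was wild type 2. The other 3 distinct clusters of 191 nt were of low signal and did not share one direction. The cluster at chr12:59040335 gave 2.84 and 3.07, then 3.56 and 3.57 (0.61, unadjusted limma p below 0.05), that at chrX:110622832 gave 4.41 and 4.29, then 4.19 and 3.97 (-0.27, not called), and that at chrX:14315401 differed by -0.085 with overlapping groups. The RefSeq U2 gene Rnu2-10 is 187 nt long, but a similar length does not identify the clusters, and the file gives no snRNA type for them.

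The size of each of these differences depended on which wild-type brain was kept. With 1 array left out, the spread measured for a cluster comes from the 2 brains of the other genotype alone. Without wild type 1, Gm25360 differed by 0.39, Gm25813 by 0.14 and the shared measurement by 0.21. Without wild type 2, Gm25703 differed by 0.28 and Gm24525 by 0.39. None of these 5 values had an unadjusted limma p below 0.05, and neither had any of the 5 clusters when knockout 1 or knockout 2 was left out. Without wild type 2, Gm25360 (0.745), Gm25813 (0.96) and the shared measurement (0.82) were called, and without wild type 1, Gm25703 (0.885) and Gm24525 (1.125) were. The 18 unnamed clusters with a mean signal of 8 or more had a median absolute difference of 0.55 for the wild-type pair and 0.19 for the knockout pair, where all clusters at that signal had 0.11 and 0.10.

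**Figure D4:**
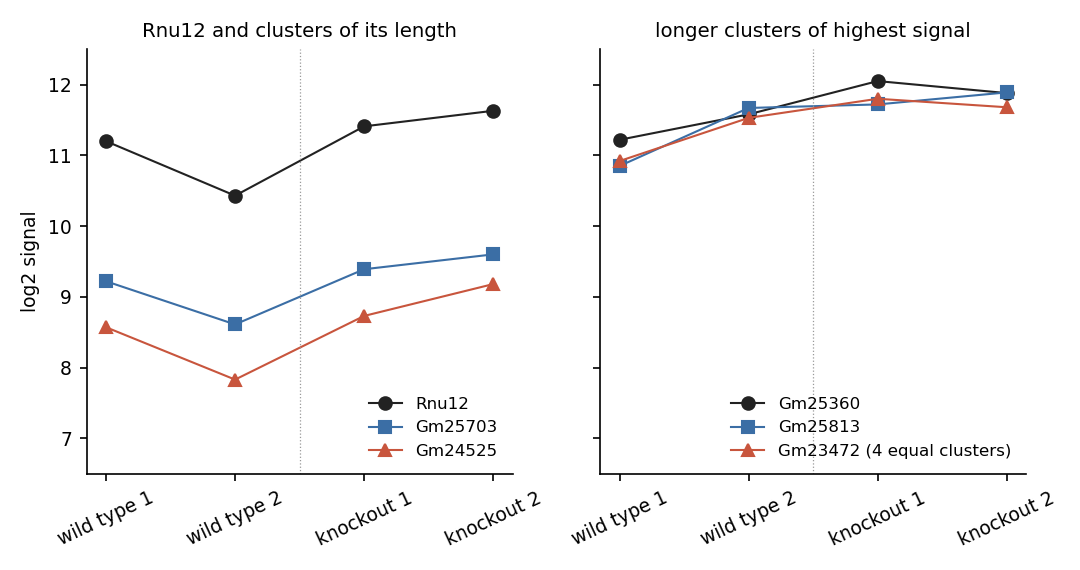
Log2 signal (y axis) on each of the 4 arrays (x axis), on the left for Rnu12 and the 2 unnamed clusters of its length with a signal above 8, on the right for the 3 distinct clusters of 191 nt with a signal above 8. Wild type 2 is lowest in all 3 on the left (10.43 for Rnu12) and wild type 1 in all 3 on the right (11.22 for Gm25360); the lines only join the values of 1 cluster.

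Of the remaining large rises, 3 were of low signal. Gm25599 (chr12:65530252-65530354) rose from 2.37 and 2.68 to 3.52 and 3.14, with 3 of 4 values below background. Gm23981 (chr8:77807535-77807640) rose from 2.81 and 3.17 to 3.64 and 3.89. A cluster on the strand of Dpy19l4 (chr4:11279265-11279419) gave 2.73 and 2.62, then 3.56 and 3.25. These 3 crossed into the background range at most, and in all of them the genotypes did not overlap. The cluster at Dpy19l4 has no cross-hybridization flag and was called in all 12 alternatives. Gm25599 was not called without wild type 1 (0.65) or knockout 1 (0.62), nor Gm23981 without knockout 2 (0.65).

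Another 3 rises reached above background in both knockout brains. The cluster at chr1:53886828-53886941, on the strand of the ubiquitin ligase gene Hecw2, gave 4.95 and 4.63 in wild type and 5.79 and 5.22 in Adar2-/- (0.72 ± 0.22 SE), above background on all 4 arrays. It is 1 of the 2 largest rises without the cross-hybridization flag. Gm26139 (chr14:98624190-98624296) gave 4.87 and 4.24, then 5.33 and 5.13, with wild type 2 within the background range. Gm25006 (chrX:88192617-88192723) gave 3.44 and 4.15, then 4.56 and 4.54, with neither wild-type signal above background. All 3 had an unadjusted p below 0.05 and a limma adjusted p of 0.834, and each was past the unadjusted threshold in 7 or 8 of its 11 or 12 alternatives. The cluster at Hecw2 was not called without wild type 1 (0.88), wild type 2 (0.56) or knockout 1 (0.43). Gm26139 was not called without wild type 2 (0.36), knockout 1 (0.58) or knockout 2 (0.78), nor Gm25006 without knockout 1 (0.75) or knockout 2 (0.77). Gm25006 was 0.40 without wild type 1 and 1.11 without wild type 2, and was called in both.

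Among the 10 largest falls, 3 unnamed clusters lay above background on all 4 arrays. Gm23462 (chr6:149074003-149074106), on the strand of Dennd5b, fell from 6.62 and 6.17 to 5.47 and 5.47, a difference of -0.93 ± 0.17 (SE). A 65-nt cluster at chr7:92770301-92770365, on the strand of the GTPase gene Rab30, gave 5.31 and 5.20, then 4.49 and 4.44 (-0.79 ± 0.11 SE). Gm26327 (chr7:39630392-39630502) gave 5.21 and 5.17, then 4.50 and 4.57 (-0.66 ± 0.10 SE). In each the genotypes did not overlap. The wild-type brains lay 0.45 apart in Gm23462, and every other pair of brains of 1 genotype in these 3 clusters at most 0.11 apart. The clusters at Rab30 and Gm26327 had an unadjusted p below 0.05 in all 11 alternatives, and Gm23462 in 10 of 11.

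The other unnamed falls lay at or near background. LOC115490035 (chr4:84830187-84830249) gave 4.15 and 4.41, then 3.45 and 3.47, and Gm23986 (chr8:50563241-50563303) 2.81 and 2.99, then 2.24 and 2.29. Both also had an unadjusted p below 0.05 in all 11 alternatives, but Gm23986 lay below background on all 4 arrays, so that its values, as those of Rnu5g, do not measure a difference in its RNA. The cluster at chr1:119530211-119530314 gave 3.91 and 4.58, then 3.36 and 3.60. Gm25739 (chr18:51254169-51254275), opposite to Prr16, gave 4.41 and 4.36, then 3.42 and 3.98, and Gm24378 (chr14:47270859-47270964), on the strand of Wdhd1, 3.82 and 3.78, then 3.49 and 2.91. These 3 had an unadjusted p below 0.05 in 7 or 8 of 11. The first was not called without wild type 2 (-0.43), knockout 1 (-0.65) or knockout 2 (-0.89), Gm25739 not without wild type 1 (-0.66) or wild type 2 (-0.71), while it was called at -0.405 without knockout 1, and Gm24378 not without wild type 1 (-0.58), wild type 2 (-0.62) or knockout 2 (-0.31). Of the 10 largest falls 9 carried the cross-hybridization flag, and of the 10 largest rises 8. Gm26139 was level, as the smallest of the 10 rises, with the unflagged small nucleolar RNA Rnu3a, at a difference of 0.675 in both, and with Rnu3a in its place the count is 7.

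Called clusters were set beside their enclosing genes. Of the 197 unnamed clusters inside a gene on the same strand, 27 (13.7%) were called at an unadjusted p of 0.05. On the opposite strand 19 of 211 were called, outside any such gene 66 of 708 (9.32%), and of all clusters 5.95%. Whether these shares differ was not tested. Of the 27 genes that enclose the called same-strand clusters, 15 differed in the same direction as the snRNA cluster. The largest difference among the 27 genes was 0.36 in size. Of the 27, 2 had an unadjusted p below 0.05, where 5.95% of all clusters did. These were Hmgn5, which rose with its snRNA cluster (0.36 and 0.49), and Stap1, which rose by 0.34 while its snRNA cluster fell by 0.32. Over all 197 same-strand clusters the differences of cluster and gene correlated at r = 0.058, and over the 211 opposite-strand clusters at r = 0.059, both as descriptions across loci.

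The unnamed clusters fell into length classes. Their lengths ran from 46 to 200 nt with 211 of 1116 at exactly 107 nt, which is the length of the RefSeq U6 gene Rnu6. The 107-nt clusters had a median signal of 3.19 and a median difference of 0.01, with 12 called higher and 9 lower. Between 100 and 120 nt, where 638 clusters lay, 35 were called higher and 29 lower, but this split depended on the arrays and the scaling: 31 and 14 without wild type 1, 29 and 35 without wild type 2, 26 and 37 after median centring, 27 and 35 after quantile normalization and 28 and 36 after cyclic loess. Of 87 clusters between 140 and 160 nt, 12 were called higher and 0 lower, with a median difference of 0.085. After median centring these counts were 7 and 1, after quantile normalization 8 and 0 and after cyclic loess 9 and 0. Without wild type 2 these counts were 3 and 3. Of 91 between 160 and 180 nt, 8 were called higher and 3 lower, with a median of 0.125, and without wild type 2 6 and 5. Of 30 between 180 and 210 nt, 4 were called higher and 1 lower, with a median of 0.07, and 1 higher and 1 lower when either knockout brain was left out. Of all clusters 3.64% were called higher and 2.31% lower.

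These length classes were set after the values were known, and no test was run on them. After median centring the medians of the classes of 140 to 160 and 160 to 180 nt were 0.045 and 0.085, against 0.015 for 40 to 80 nt, -0.03 for 80 to 100 nt, -0.025 for 100 to 120 nt, 0.02 for 120 to 140 nt and 0.03 for 180 to 210 nt, and the 5 positive ones stayed above 0 under each scaling, but the calls between 160 and 180 nt were then 6 higher and 5 lower. Copies of 1 snRNA share sequence and can share signal, so clusters of a length class are not independent. The median signals between 140 and 160 and between 160 and 180 nt (3.74 and 4.47) were also higher than the 3.29 of the class of 100 to 120 nt.

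**Figure D5:**
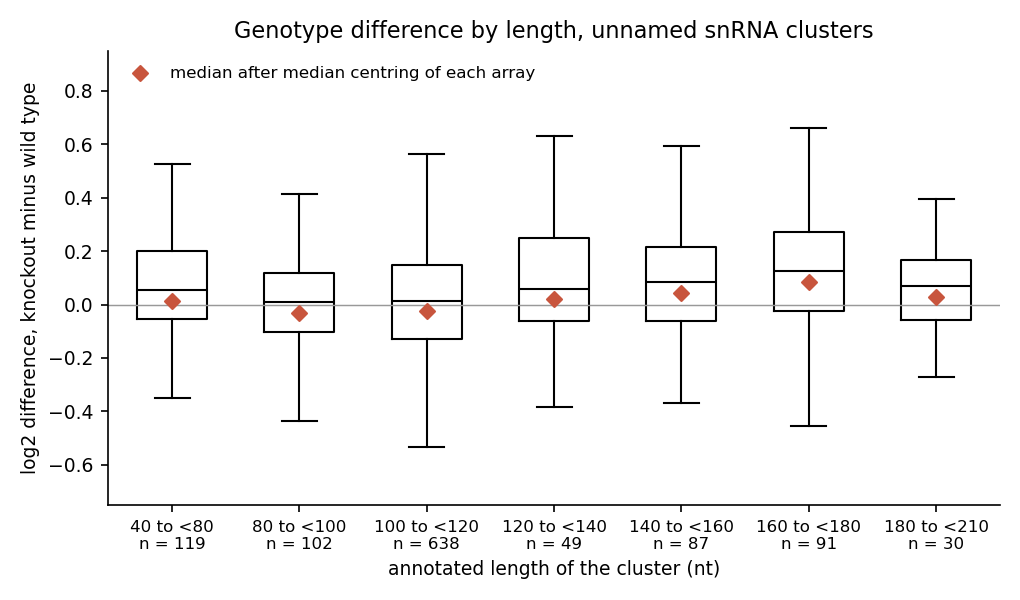
Difference between genotypes (y axis, log2, Adar2-/- minus wild type) of the 1116 distinct unnamed snRNA clusters by annotated length (x axis, nt). Boxes give the quartiles and median and whiskers reach at most 1.5 times the box height, with points beyond them not drawn; diamonds give the class median after median centring, which is highest between 160 and 180 nt (0.085).

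The small nucleolar RNAs that the rule took in were well above background. Rnu3a, a U3 gene for ribosomal RNA processing, gave 6.34 and 6.41 in wild type and 6.82 and 7.28 in Adar2-/- (0.68, unadjusted limma p below 0.05, adjusted p = 0.834), with no overlap. It was not called without wild type 1 (0.64) or wild type 2 (0.71), nor with the pooled-variance test, and it was called at 0.905 without knockout 1 and 0.445 without knockout 2. The Rnu3b1 measurement, another U3 gene set, gave 9.98 and 10.46, then 10.27 and 10.60, and overlapped (0.22 ± 0.20 SE). Snord82, in an intron of the nucleolin gene Ncl and among the 5 clusters of highest signal, gave 10.82 and 11.42, then 10.80 and 11.07 (-0.19 ± 0.22 SE).

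Among the protein genes of the rule, Snapc1 was the one among the 10 largest falls. It encodes a subunit of the complex that binds snRNA promoters and is needed to transcribe them. Signals were 8.48 and 8.68 in wild type and 8.15 and 7.81 in Adar2-/-, without overlap (-0.60 ± 0.15 SE, unadjusted limma p below 0.05, adjusted p = 0.834). Without wild type 2 it was -0.50 and without knockout 2 it was -0.43, and in neither case was it called. The other subunits did not pass the test: Snapc2 gave a difference of -0.23, Snapc3 -0.06, Snapc5 -0.30, and the 2 Snapc4 clusters 0.21 and -0.18. One of 2 clusters with the symbol U2af1l4, a relative of the small U2AF subunit that recognises the 3′ splice site, was higher (5.81 and 5.95, then 6.25 and 6.19, unadjusted p below 0.05), while the other gave 8.75 and 8.90, then 8.86 and 8.60. The higher one lies on the minus strand within the span of the other, which is on the plus strand, so they do not measure the same RNA. The 7 Lsm clusters, whose proteins form rings on U6 and on mRNA, differed by -0.17 to 0.24 and none passed.

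Proteins that build or bind snRNA particles were examined as lists. Of 112 listed symbols 101 were on the array, in 118 clusters, and 2 of the 118 clusters (1.69%) had an unadjusted p below 0.05, both lower, against the 5.95% of all clusters. The median difference over the lists was -0.06, at a median signal of 8.24, against 0.005 over all clusters and -0.04 over all clusters with a signal of 8 or more. By list, none of the 7 clusters of the U1 particle, 9 of the Sm ring, 13 of the U2 particle, 20 of the U4/U6 and U5 particles, 7 of the LSm ring, 2 of U7 and 9 of the minor spliceosome passed, while 1 of 26 for snRNA transcription and 3′ end formation and 1 of 25 for assembly and maturation did. Besides Snapc1 the latter was Prmt5, the enzyme that methylates Sm proteins, at 10.23 and 10.02 in wild type and 9.87 and 9.74 in Adar2-/- (-0.32 ± 0.12 SE).

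Next in order among the lower ones came Ints3, a subunit of the Integrator complex that forms snRNA 3′ ends, at 10.22 and 10.18, then 9.99 and 9.95 (-0.23). The lowest p among the higher ones were those of 1 of the 2 clusters of Pou2f1, a transcription factor of snRNA promoters (5.46 and 5.44, then 5.82 and 5.63), 1 of the 2 Snapc4 clusters (6.75 and 6.84, then 7.06 and 6.94) and Lsm5 (5.12 and 5.05, then 5.19 and 5.45). The other Pou2f1 cluster was lower, at 8.53 and 8.48, then 8.32 and 8.39. The 2 Pou2f1 clusters lie on opposite strands, as do the 2 of Snapc4, so in each pair they are not measures of 1 RNA. None of these passed the test. With an intensity trend in the variance model 6 of the 118 clusters (5.08%) were called, all lower, against 5.83% of all clusters.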

How the data were processed

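Total RNA of 4 whole brains (2 wild type, 2 Adar2-/-) was hybridized to 1-colour Affymetrix whole-transcript mouse arrays, 1 array per brain. The authors deposited log2 signals with 2 decimals, which the submitters' processing notes credit to RMA in Affymetrix Expression Console (versions not given in the sources used here). The table's 9 columns of the authors' own comparison (ratios, fold changes and p-values) were not used, and no column of per-sample values was left over. Age and the Gria2 and AdarB1 genotypes come from the study's methods. The small number of arrays limits the precision. Each array is taken as 1 brain, which the labels do not state outright, so the p-values measure only the spread between these samples.

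The signals were fitted as deposited with limma 3.58.1 (run in R 4.3.3), using lmFit followed by eBayes with a term for genotype alone and two-sided p-values, over all 33793 clusters, with Benjamini-Hochberg adjustment over all of them; the steps were tested on simulated data. Groups of clusters were described by counts and medians in Python 3.11.15 (pandas 2.3.3, numpy 2.4.6, matplotlib 3.10.9), with no set test. The members, gene lists and tests were chosen with earlier results of these data known. The rule for named genes took Adarb1, every cluster both 2-fold different and called at an unadjusted p of 0.05, the 10 largest rises and 10 largest falls past that p without overlap, the 5 of highest mean signal, the 3 widest within a genotype, snRNAs with a symbol, and 3 listed protein genes per direction; others were chosen after their values were seen. One cluster that the rule names is not reported here.

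The table does not name a genome build. Its descriptions quote NCBIM37 positions for 1121 rows, of which 18 start where the coordinate columns do, and 565 of 1142 RNA rows have the exact span of a RefSeq GRCm38.p6 snRNA gene, with 1004 such genes in that annotation. Alternatives were 3 other scalings (centring on the median, quantile, cyclic loess), signal filters, a replicate block, each array left out, other variance models, and removal of cross-hybridizing clusters.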

Additional observations from a re-analysis of the deposited data

How the results depend on the processing

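Adarb1 kept its direction and an unadjusted limma p below 0.05 in all 13 alternatives, at -1.52 to -1.32. No alternative gave an snRNA cluster an adjusted p below 0.05. Calls at an unadjusted p of 0.05 were 16 of 130 clusters above the median signal (12.3%, all clusters 5.85%), 55 of 504 without cross-hybridizing clusters (10.9%, all clusters 6.10%), 36 of 352 above the Y-linked range (10.2%, all clusters 5.54%, chosen after seeing the data) and 61 of 1141 with the pooled-variance test (5.35%, all clusters 5.61%), against 116; the first 3 have fewer clusters to call. Past 2-fold as well, these settings gave 0, 0, 1 and 1 (0.0947%, 0.0381%, 0.0796% and 0.0207% of all clusters), and a 1.5-fold limit 31 (2.72%, all clusters 0.657%), against 2. Non-overlapping clusters were 42 of 130 (32.3%, all clusters 34.3%) and 184 of 504 (36.5%, all clusters 34.4%). The median difference of 0.035 became -0.005 after median centring, 0.005 after quantile scaling and 0.0069 after cyclic loess, and the share higher became 48.99%, 50.7% and 51.6%; the medians of all clusters were then -0.035, -0.0031 and 0.0014. Listed protein genes called numbered 2, or 3 after median centring, above the median signal (of 103) or without cross-hybridizing clusters (of 114), 1 after either quantile or cyclic loess scaling and 6 (5.08%) with either an intensity trend or the pooled-variance test, where 5.44 to 6.10% of all clusters were called in these settings. The causes were not tested.

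Leaving out 1 array at a time gave 82 to 116 calls (7.19 to 10.2%, all clusters 3.61 to 5.33%), 3 to 8 of at least 2-fold, 724 to 779 non-overlapping clusters (63.5 to 68.3%, all clusters 64.1 to 67.2%; 3 arrays overlap less easily), a median of 0.025 to 0.05, a share higher of 53.1 to 58.4% and 2 protein genes. Named clusters kept their side of the threshold in 284 comparisons, lost it in 57, gained it in 3 and changed sign in 10, all 10 with an array left out and none among called clusters: chr17:25694114 (-0.94 to 0.68), chr9:82439414 (-0.83 to 0.67), chr7:63585922 (-0.62 to 0.75), Rnu7 (-0.15 to 0.64), Snord82 (-0.49 to 0.12), Rnu5g (-0.46 to 0.01) and Rnu11 (-0.035 to 0.245).

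The replicate numbers share no stated origin, and same-numbered arrays hardly deviated together (r = 0.052 over all clusters, 0.035 over these). With the number as a replicate block 96 clusters were called, 58 higher and 38 lower (8.41%, all clusters 5.01%), and 0 after adjustment.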
